A study of Mus musculus with 6 samples.

Results

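Natriuretic peptides are hormones of the heart and vessel wall that act through cGMP. The set described here holds 7 genes of this system, picked by gene symbol from the 47069 genes counted in mouse lung: the receptors Npr1, Npr2 and Npr3, the ligand genes Nppa, Nppb and Nppc, and the activating protease Corin. Of these 7 genes, 5 had enough counts to enter the fit across all genes and 2 (Nppb and Nppc) did not. The set was chosen by a result of the same contrast, since Npr3 was already known to be lower in KO lungs, so the values of its members in KO against WT mice are given as a description with no test.

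Lungs were taken at ZT10, that is 10 h after lights on, from 3 WT mice (WT4 to WT6) and 3 Zpbp2 KO mice (KO4 to KO6), with 1 library of poly(A) RNA per mouse. WT mice were C57BL/6J animals of the same colony. KO mice carried the allele B6.129S7-Zpbp2tmZuk/Mmjax on the C57BL/6J background, in which exons 1 to 3 of Zpbp2 are deleted in every cell of the body. All mice were adults kept in a cycle of 12 h light and 12 h dark. The study used mice of both sexes, and the sex and exact age of these 6 mice are not given in the sources used here.

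ANP and BNP, made from Nppa and Nppb, bind the receptor encoded by Npr1, and CNP, made from Nppc, binds the receptor encoded by Npr2. Both receptors are guanylyl cyclases that make cGMP inside the cell. Npr3 encodes the clearance receptor, which has no cyclase domain, takes up all these peptides and hands them to lysosomes, and can also act through inhibitory G proteins. Corin encodes a membrane protease of cardiac muscle that cuts the ANP precursor. In the lung these receptors are known from vessel wall cells, and cardiac muscle reaches into the organ along the pulmonary veins of the mouse.

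The promoters of the genes that carry most of what follows are shown first, because Npr3 fell in every KO mouse while Nppa and Corin differed between mice of one genotype. Each run is the 150 bases before the RefSeq start of the gene in GRCm38.p6, read 5′ to 3′ on the strand of the gene. The windows of all 7 members were searched on both strands for TATAAA (the TATA box), GATAA (bound by GATA factors), CACGTG (the E-box bound by CLOCK and BMAL1) and AGGTCA (a half-site of nuclear receptors), and matches are in capitals.
Npr3, chr15:11907372-11907521, minus strand: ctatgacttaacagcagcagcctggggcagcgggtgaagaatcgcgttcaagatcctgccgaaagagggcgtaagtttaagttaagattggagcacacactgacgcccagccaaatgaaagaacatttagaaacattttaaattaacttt
Nppa, chr4:148000572-148000721, plus strand: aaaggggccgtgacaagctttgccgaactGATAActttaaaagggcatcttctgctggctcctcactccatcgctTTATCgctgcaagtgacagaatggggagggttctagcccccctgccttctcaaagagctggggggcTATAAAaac
Corin, chr5:72504541-72504690, minus strand: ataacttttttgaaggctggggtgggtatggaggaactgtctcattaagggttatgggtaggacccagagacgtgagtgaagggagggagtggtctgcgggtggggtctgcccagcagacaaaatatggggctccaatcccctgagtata
The Nppa window held TATAAA with its first base 9 bases before the start, and GATAA at 75 and 121 bases. The Nppb window, not printed, held TATAAA at 31 bases and GATAA at 83 and 94 bases, and the Nppc window held TATAAA at 29 bases. None of the 4 letter strings was in the windows of Npr1, Npr2, Npr3 or Corin. Among 32851 windows of the same length, TATAAA was in 7.57%, GATAA in 13.3%, CACGTG in 4.30% and AGGTCA in 8.58%. The RefSeq starts of Npr3, Corin and Nppc lie beyond the end of the gene in the GENCODE annotation used for positions below. That of Nppb lies inside the gene in this annotation, so its window overlaps the gene. The Npr3 window overlaps 2 annotated exons that lie outside Npr3, and the Npr2 window 1 that is not of Npr2.

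Library totals ran from 19981428 counts in KO6 to 46796908 counts in KO5. Levels are in CPM, that is counts per 1000000 counts of the library after TMM scaling, and 3 counts, taken as the floor of detection, amounted to 0.0629 to 0.148 CPM, which covers counting error only. Zpbp2 had 1, 2 and 2 counts in WT mice and 0 in each KO mouse, too few to check the deletion. Surfactant and alveolar genes marked every library as lung, with Sftpc between 9318 and 13751 CPM and Ager between 1373 and 1661 CPM. Library KO5 stood apart by 24 counts on 4 Y-linked genes, against 0 or 1 count in each of the other 5 libraries, while Xist was at 714 to 993 CPM in all 6. KO5 also had the highest sum of B cell marker genes, 1125 CPM, against 141 to 154 CPM in WT mice and 266 and 318 CPM in KO4 and KO6. Adjusted by Benjamini-Hochberg, the p from edgeR's quasi-likelihood test was at most 0.05 for 1089 of 17037 tested genes (6.39%), of which 455 (2.67%) were lower and 634 (3.72%) higher in KO mice. A gene is called below when it passed that test.

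Npr3 was lower in KO lungs, and it was the member with the clear separation by genotype. The gene (ENSMUSG00000022206) lies on the minus strand of chromosome 15 from 11839896 to 11907287 in GRCm38. Its level was 252, 248 and 213 CPM in WT4, WT5 and WT6 and 59.0, 63.9 and 60.3 CPM in KO4, KO5 and KO6. The lowest WT mouse lay far above the highest KO mouse, and the 3 KO mice lay close to each other. The raw counts were 6258, 5177 and 6583 in WT mice and 1208, 3051 and 1223 in KO mice, the higher count of KO5 going with its deeper library. Means were 237 ± 21.5 CPM in WT and 61.1 ± 2.56 CPM in KO mice (SD, n = 3), a ratio of 3.89, and the fitted log2 fold change was −1.96 (SE 0.0787). By p-value Npr3 stood at rank 1 of 17037 tested genes, and by size at rank 6 among the genes called lower. It was 1 of 11 genes (0.0646% of those tested) that were both called and lower by a log2 fold change of at least 1.5. These positions are what brought the gene into view and are not evidence about it. Leaving out each mouse in turn gave log2 fold changes from −2.03 to −1.91.

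Npr1, the receptor for ANP and BNP, showed much smaller differences. It lies on the minus strand of chromosome 3 from 90450591 to 90465866 (ENSMUSG00000027931). Its level was 227, 236 and 220 CPM in WT mice and 229, 177 and 183 CPM in KO4, KO5 and KO6. KO4 lay inside the WT range and the other two KO mice lay below it, so the groups overlapped. Means were 228 ± 7.81 and 196 ± 28.4 CPM (SD, n = 3), with a log2 fold change of −0.22 (SE 0.100). Leaving out single mice moved it between −0.35 (without KO4) and −0.15 (without KO5).

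Npr2, the receptor for CNP, had nearly the same level in both genotypes. Its position is chromosome 4, plus strand, 43631935 to 43651244 (ENSMUSG00000028469). Levels were 134, 129 and 120 CPM in WT mice and 128, 124 and 119 CPM in KO mice, with ranges that overlapped. The log2 fold change was −0.05 (SE 0.0586), and the means were 128 ± 7.28 and 124 ± 4.24 CPM.

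**Figure D1:**
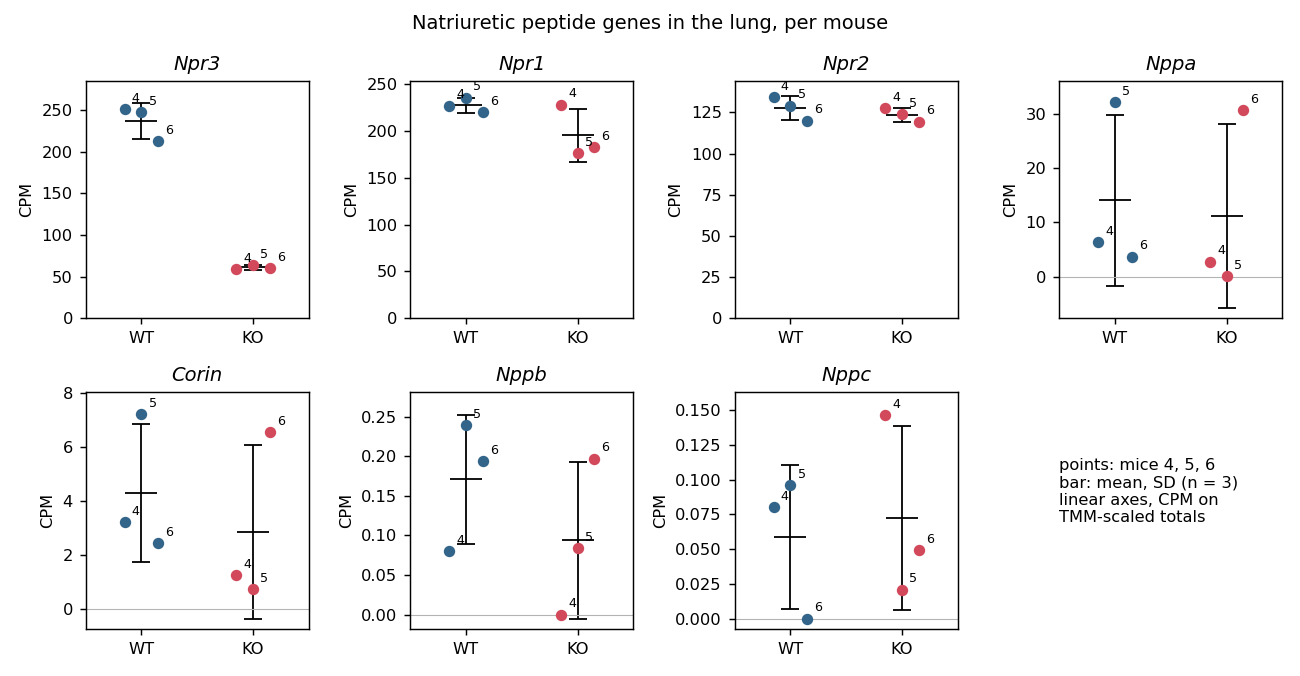
Levels of the 7 genes per mouse in CPM on linear axes, 1 panel per gene with its own scale; points are mice 4, 5 and 6 of each genotype, and bars are the mean and SD (n = 3). Npr3 separates the genotypes (213 to 252 CPM against 59.0 to 63.9 CPM), the other 6 genes overlap, and WT5 and KO6 are the high mice for Nppa and Corin.

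Because CPM counts more fragments from longer transcripts, receptors were compared with each other per kb of exon, with exon lengths of 9389 bases for Npr3, 4783 for Npr1 and 4667 for Npr2. On this scale Npr1 was the most abundant receptor in every mouse, with 46.1 to 49.3 CPM per kb in WT and 36.9 to 47.8 CPM per kb in KO mice. Npr2 had 25.7 to 28.8 CPM per kb in WT and 25.6 to 27.4 CPM per kb in KO mice. Npr3 had 22.7 to 26.8 CPM per kb in WT mice, a range that overlapped that of Npr2, and 6.28 to 6.81 CPM per kb in KO mice, below Npr2 in each of them. The order depends on the lengths, which count all annotated exons of a gene once. In plain CPM, Npr3 lay above Npr1 in WT4 (252 and 227 CPM) and WT5 (248 and 236 CPM), and below it in WT6 and every KO mouse.

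The clearance receptor made up 26.0, 25.5 and 24.0% of the summed receptor transcripts per kb in WT mice and 7.71, 9.69 and 9.16% in KO mice. The groups did not overlap, and the means were 25.2% ± 1.05 and 8.85% ± 1.02 (SD, n = 3), a difference of −16.3 percentage points. The sum of the 3 receptors was 103, 103 and 94.4 CPM per kb in WT mice and 81.5, 70.3 and 70.2 CPM per kb in KO mice. In plain CPM, without division by length, the share of Npr3 was 40.0% in WT and 16.1% in KO mice. These shares restate the fall of Npr3 on another scale and carry no test.

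**Figure D2:**
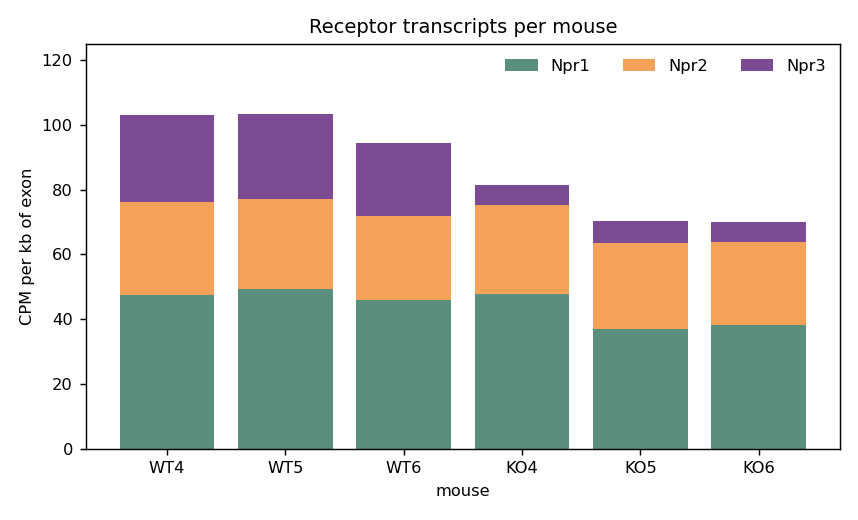
Stacked bars of the receptor transcripts in each mouse, in CPM per kb of exon on an axis from 0. The top segment, Npr3, is 22.7 to 26.8 CPM per kb in WT and 6.28 to 6.81 CPM per kb in KO mice, while Npr2 keeps between 25.6 and 28.8 CPM per kb in all 6 mice.

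In whole lung, fewer cells of a type and less RNA per cell cannot be told apart, so Npr3 is given beside markers of the cells of the vessel wall. Of 14 endothelial markers, all tested, 1 (Cldn5) was called lower and 0 higher, beside 2.67% and 3.72% of all tested genes. The summed level of the 14 markers was 5729 to 6244 CPM in WT and 5214 to 6261 CPM in KO mice. Relative to the mean log2 level of this list, Npr3 stood at −0.43, −0.38 and −0.57 in WT mice and −2.51, −2.18 and −2.31 in KO mice. The difference of the means, −1.87 on the log2 scale, was close to that of Npr3 alone, and against 9 markers of general capillary cells it was −1.81. Npr1 relative to the endothelial list differed by −0.15 and Npr2 by 0.03.

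Among the capillary lists, 1 of 9 general capillary markers (Cd300lg) was called lower, beside 2.67% of all tested genes. The sum of the 9 markers was 2702 to 2907 CPM in WT and 2573 to 3387 CPM in KO mice. Of 8 markers of aerocytes, the capillary cells specialised for gas exchange, 1 (Prx) was called lower, also beside 2.67% of all tested genes. By sign alone all 8 were lower, with a median log2 fold change of −0.46. Groups did not overlap for 3 of the 8, beside 32.6% of all tested genes. The sum of the 8 markers was 1057 to 1211 CPM in WT and 651 to 996 CPM in KO mice, with KO4 lowest by a mean log2 level of −1.24 relative to WT. The aerocyte lists of KO5 and KO6 stood at −0.15 and −0.14, and Npr3 was at 59.0, 63.9 and 60.3 CPM in KO4, KO5 and KO6. The part of capillary cells in the level of Npr3 was not tested. Of the 8 smooth muscle and pericyte markers and the 9 fibroblast markers, 0 were called in edgeR's quasi-likelihood test, and their median log2 fold changes were −0.29 and −0.15.

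The smooth muscle and pericyte sum was 844 to 1137 CPM in WT and 771 to 858 CPM in KO mice, and the fibroblast sum was 1456 to 1716 and 1319 to 1407 CPM. Groups did not overlap for 2 of 8 smooth muscle and pericyte markers and 1 of 9 fibroblast markers, beside 32.6% of all tested genes. These were Cnn1 (52.5 ± 17.3 and 26.8 ± 6.06 CPM in WT and KO mice, SD, n = 3), Acta2 (131 to 199 and 89.6 to 128 CPM over mice) and Col3a1 (278 ± 24.0 and 207 ± 29.2 CPM), all lower in KO mice. By sign alone, 3 of the 8 and 1 of the 9 markers were higher in KO mice. The part of these cells in the level of Npr3 was not tested.

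Cartilage, another tissue in which Npr3 is known, had sums of only 0.574 to 1.61 CPM over 7 markers in all 6 mice, and 5 of these 7 were too low to test. Mesothelial and adipocyte lists had 0 called genes of 5 and of 6. Outside these lists, 11 of 12 monocyte markers were called higher in KO mice, beside 3.72% of all tested genes. Of 9 genes of heat shock and handling, 2 (Hsph1 and Dnajb1) were called lower, beside 2.67% of all tested genes. By sign alone all 9 were lower, with a median log2 fold change of −1.12, and groups did not overlap for 3 of them. Their sum was 759 to 1491 CPM in WT mice, highest in WT6, and 470 to 674 CPM in KO mice. For all 10 B cell markers the lowest KO mouse exceeded the highest WT mouse, and groups did not overlap in either direction for 32.6% of all tested genes. Of these 10 markers, 0 were called in edgeR's quasi-likelihood test. The part of these differences in the level of Npr3 was not tested.

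**Figure D3:**
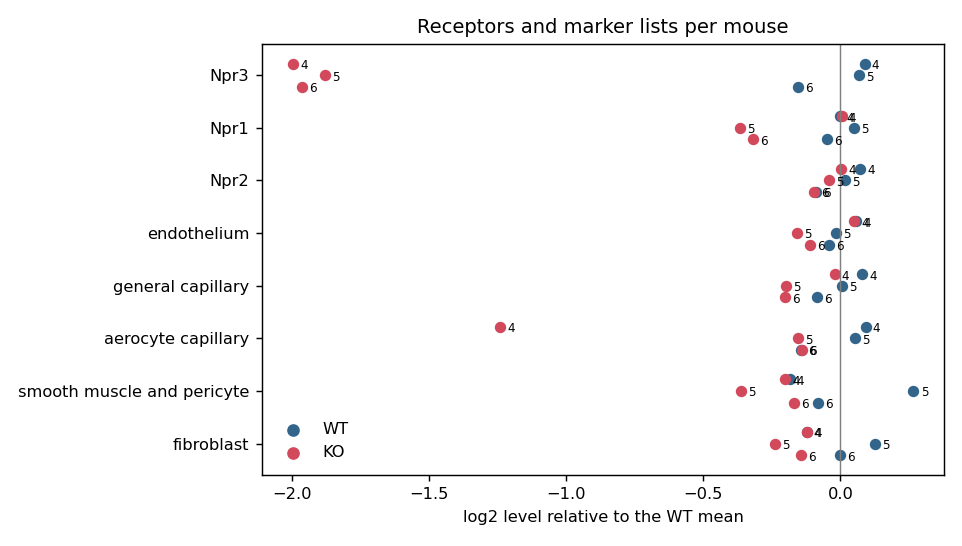
Log2 level of the receptors, and mean log2 level of 5 marker lists, in each mouse relative to the WT mean; colours mark the genotype and digits the mouse. Npr3 in KO mice lies near −2 (−2.00, −1.88 and −1.96), whereas every endothelial value lies between −0.16 and 0.06 and only the aerocyte list of KO4 lies below −1.

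By a rule based on the 6 libraries alone, the genes whose log2 levels ran closest to that of Npr3 among 15376 candidates were Camsap2, Slc25a25, 9130401M01Rik, C2cd2l and Jagn1. Pearson's r with Npr3 was 0.997, 0.997, 0.997, 0.995 and 0.994 over 6 libraries that form 2 separate groups for Npr3, and is given as a description. Their own changes were small beside that of Npr3. Camsap2 went from 113 ± 3.27 to 90.9 ± 0.306 CPM, and Slc25a25 from 36.5 ± 0.277 to 27.2 ± 0.137 CPM (SD, n = 3). The log2 fold changes of 9130401M01Rik, C2cd2l and Jagn1 were −0.15, −0.30 and −0.33.

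Nppb and Nppc were near the floor in every lung, while Nppa differed widely between mice of one genotype. Nppa, which encodes ANP, spans 148000722 to 148002079 of chromosome 4 on the plus strand (ENSMUSG00000041616). Its level was 6.39, 32.1 and 3.68 CPM in WT4, WT5 and WT6 and 2.78, 0.105 and 30.7 CPM in KO4, KO5 and KO6. WT5 and KO6 were high, KO5 was at 5 counts, and the spread within each genotype covered the other. The highest level was 306.6 times the lowest. Per kb of exon, Nppa stood at 37.1 CPM per kb in WT5 and 35.5 CPM per kb in KO6, above Npr2 and Npr3 in the same mice, and at 0.121 to 7.39 CPM per kb in the other 4 mice. Means were 14.1 ± 15.7 and 11.2 ± 17.0 CPM (SD, n = 3), with a log2 fold change of −0.35 (SE 1.44). It moved to −3.53 without KO6, to 0.27 without KO5 and to 1.13 without WT5.

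Nppb, which encodes BNP, had 2, 5 and 6 counts in WT mice and 0, 4 and 4 counts in KO mice and was not tested. It lies beside Nppa on chromosome 4, from 147985788 to 147987205. Nppc, which encodes CNP, had 2, 2 and 0 counts in WT and 3, 1 and 1 counts in KO mice, at or under the floor in every library. It lies on the minus strand of chromosome 1 from 86666291 to 86670571. A difference in Nppb or Nppc was not detectable at this depth.

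Corin was high and low in the same mice as the cardiac genes. It lies on the minus strand of chromosome 5 from 72300025 to 72504473 (ENSMUSG00000005220). Its level was 3.22, 7.23 and 2.46 CPM in WT mice and 1.27, 0.754 and 6.56 CPM in KO mice, again high in WT5 and KO6. The log2 fold change was −0.63 (SE 0.805), and it moved to −2.13 without KO6, to −0.12 without KO5 and to −0.03 without WT5.

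The summed level of 14 cardiac muscle genes, among them Myh6, Myl7 and Tnnt2, ran from 586 to 1373 CPM in WT and from 247 to 1520 CPM in KO mice, and 0 of the 13 tested were called in edgeR's quasi-likelihood test. Bmp10, an atrial factor, was at or near 0 in every library. Over the 6 mice, log2 levels of Corin followed the cardiac list with Pearson's r = 0.995 (two-sided exact permutation p = 0.00556, adjusted 0.0111) and Spearman's rho = 0.943 (exact p = 0.0167, adjusted 0.0333). For Nppa, r was 0.976 and rho was 0.943, with the same exact p-values. Without KO5 and KO6, the mice farthest from the median of the cardiac list, r was 0.996 for Corin and 0.957 for Nppa. These relations and those of Npr1 and Npr2 with the endothelial list form a family of 4, computed after the levels had been seen, and 3 mice per genotype are too few to repeat them within a genotype.

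Per 1000 counts of Myh6, a heavy chain of cardiac myosin, Corin had 9.71, 13.1 and 12.3 counts in WT mice and 12.7, 11.7 and 10.8 counts in KO mice. This ratio stayed in a narrow range while Myh6 itself differed 9.39-fold between the lowest and the highest mouse. Nppa per 1000 Myh6 counts was 19.3, 58.4 and 18.5 in WT and 27.8, 1.63 and 50.8 in KO mice. It remained highest in WT5 and KO6 and lowest in KO5.

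**Figure D4:**
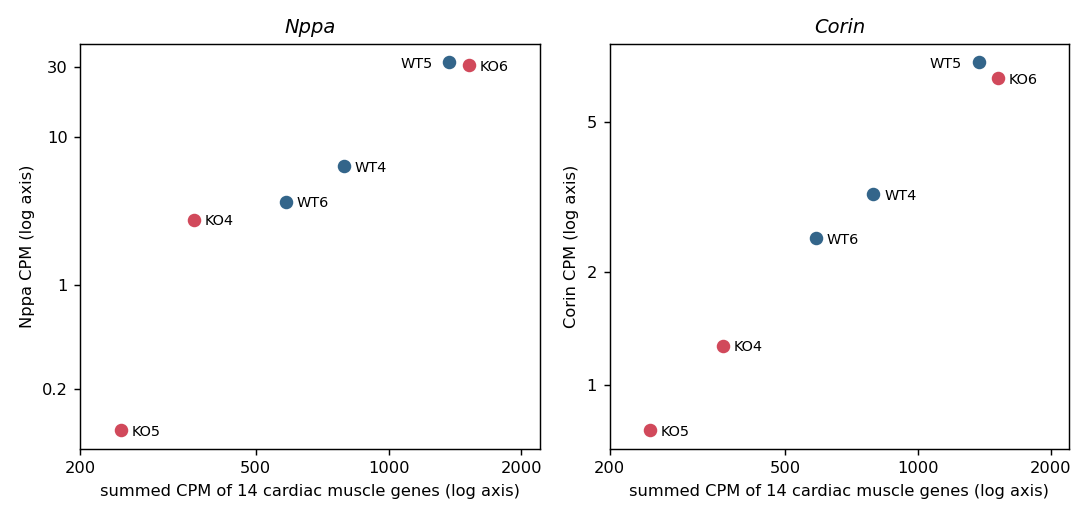
Nppa (left) and Corin (right) against the summed level of 14 cardiac muscle genes, all in CPM on log axes, 1 point per mouse. Both genes follow the cardiac sum from KO5 (247 CPM) to WT5 and KO6 (1373 and 1520 CPM); KO5 and KO4 are the lowest mice, and the highest are 1 of each genotype.

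The endothelial list gave weaker relations for the cyclase receptors. For Npr1, r was 0.896 (two-sided exact permutation p = 0.0444, adjusted 0.0593) and rho was 0.771 (exact p = 0.103), with r = 0.836 without WT4 and KO5. For Npr2, r was 0.713 (exact p = 0.122) and rho was 0.771 (exact p = 0.103).

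Of the 5 tested members, 1 was called, Npr3, in the lower direction in which 2.67% of all tested genes were called, and nothing is read from this count. It was also the 1 member of 5 whose groups did not overlap, a property of 32.6% of the tested genes. The median log2 fold change of the 5 tested members was −0.35, beside 0.00 for all tested genes.

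The rest of the cGMP system was described by 54 further genes, of which 40 were tested. Among these, 4 were called higher (Nos2, Vasp, Irag2 and Pde1b) and 1 lower (Nos3), beside 3.72% of all tested genes called higher and 2.67% called lower. The median log2 fold change was −0.07, beside 0.00 for all tested genes, and the groups of 12 genes did not overlap, beside 32.6% of all tested genes. Each of the 5 calls was lost when certain single mice were left out. With all 6 mice, the call of Nos3 was also lost with upper-quartile scaling (adjusted p = 0.0534 in edgeR's quasi-likelihood test) and that of Vasp without the filter on low counts (adjusted p = 0.0591). The calls of Nos2, Nos3 and Vasp were lost in 6, 5 and 5 of the 6 fits without 1 mouse, and those of Irag2 and Pde1b in 4 and 3 of them. Nos3 and Vasp kept their call without KO4, Irag2 without KO4 and without KO5, and Pde1b without WT4, without KO4 and without KO5.

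Among the 5 tested genes that cut or degrade the peptides, 0 were called in edgeR's quasi-likelihood test. Mme encodes neprilysin, the membrane protease that breaks them down, and had a log2 fold change of 0.03 with an adjusted p of 0.780 in edgeR's quasi-likelihood test (Benjamini-Hochberg). Furin, a convertase of peptide precursors, had −0.07 (adjusted p = 0.649). Ide, the insulin-degrading enzyme, was at 124, 175 and 135 CPM in WT and 123, 116 and 79.7 CPM in KO mice, without overlap, with a log2 fold change of −0.45 (adjusted p = 0.187). Ostn, whose peptide product osteocrin binds the clearance receptor, had 1 count in KO5 and 0 in the other 5 libraries.

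Among the genes of other cGMP sources, 6 of 13 were tested. Nos2, the inducible nitric oxide synthase, rose from 2.94 ± 0.329 to 5.19 ± 0.524 CPM (SD, n = 3), with a log2 fold change of 0.82 (SE 0.152, adjusted p = 0.0303 in edgeR's quasi-likelihood test). Its level was 3.02, 2.59 and 3.23 CPM in WT and 5.42, 5.55 and 4.59 CPM in KO mice, and the groups did not overlap. Nos3, the endothelial nitric oxide synthase, fell from 41.0 ± 2.24 to 30.3 ± 3.86 CPM, with a log2 fold change of −0.44 (SE 0.0978, adjusted p = 0.0457). WT mice had 39.1, 43.5 and 40.4 CPM of Nos3 and KO mice 34.6, 27.1 and 29.2 CPM. The subunits of soluble guanylyl cyclase, the nitric oxide receptor, were not called, with log2 fold changes of 0.04 for Gucy1a1 (adjusted p = 0.912) and 0.06 for Gucy1b1 (adjusted p = 0.798).

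Of 11 tested genes for cGMP-dependent kinases, their substrates and cGMP-gated channels, 2 were called higher and 0 lower, beside 3.72% and 2.67% of all tested genes. By sign alone, 4 were higher and 7 lower. Vasp, an actin regulator phosphorylated by these kinases, rose from 117 ± 3.11 to 138 ± 6.50 CPM (SD, n = 3), with a log2 fold change of 0.24 (SE 0.0535, adjusted p = 0.0445 in edgeR's quasi-likelihood test). Irag2, named Lrmp in the deposited counts, is a relative of the kinase substrate Irag1 known from lymphoid cells, and rose from 9.42 ± 1.53 to 30.6 ± 14.8 CPM, with a log2 fold change of 1.70 (SE 0.329, adjusted p = 0.0335). In single mice Irag2 was at 10.3, 7.66 and 10.3 CPM in WT and 19.3, 47.3 and 25.0 CPM in KO4, KO5 and KO6, so KO5, the mouse with the highest B cell sum of 1125 CPM, was highest here too. The part of B cell RNA in this rise was not tested. Prkg1, the main cGMP-dependent kinase of smooth muscle, had a log2 fold change of −0.27 (adjusted p = 0.323).

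The list for phosphodiesterases that split cGMP, which includes subunits that do not split it themselves, had 13 tested genes. Of these, 1 was called higher and 0 lower, beside 3.72% and 2.67% of all tested genes. By sign alone, 7 were higher and 6 lower. Pde1b, which is activated by calmodulin, rose from 10.2 ± 0.842 to 17.1 ± 1.34 CPM (SD, n = 3), with a log2 fold change of 0.75 (SE 0.101, adjusted p = 0.0171 in edgeR's quasi-likelihood test). WT mice had 11.1, 9.67 and 9.69 CPM of Pde1b and KO mice 16.1, 18.6 and 16.6 CPM, without overlap. Pde2a, which cGMP stimulates, was at 13.2, 14.9 and 11.6 CPM in WT and 16.3, 36.4 and 19.6 CPM in KO mice, with KO5 highest. Its log2 fold change of 0.88 (SE 0.291) did not pass edgeR's quasi-likelihood test (adjusted p = 0.117) and passed in DESeq2 (adjusted p = 0.0138). Pde5a and Pde3a, phosphodiesterases of smooth muscle, had log2 fold changes of 0.00 (adjusted p = 0.992) and 0.04 (adjusted p = 0.863) in the first of these tests.

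The cGMP export pumps Abcc4 and Abcc5, and the 3 inhibitory G protein subunits to which the clearance receptor can couple, had 0 called genes in either direction in edgeR's quasi-likelihood test. Groups did not overlap for 2 of 2 pumps and 2 of 3 subunits, beside 32.6% of all tested genes. Abcc4 was higher in KO mice (log2 fold change 0.42), and Abcc5 (−0.15), Gnai1 (−0.22) and Gnai3 (−0.07) were lower. Gnai2 (0.06) overlapped. Beside these genes, the monocyte list had 11 of 12 members called higher and a median log2 fold change of 1.37. Its summed level, 1688 to 1738 CPM in WT and 1839 to 2139 CPM in KO mice, is mostly Ace, the member that was not called (means of 1447 and 1461 CPM). The part of the monocyte genes in the rises of Nos2, Vasp and Pde1b was not tested.

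**Figure D5:**
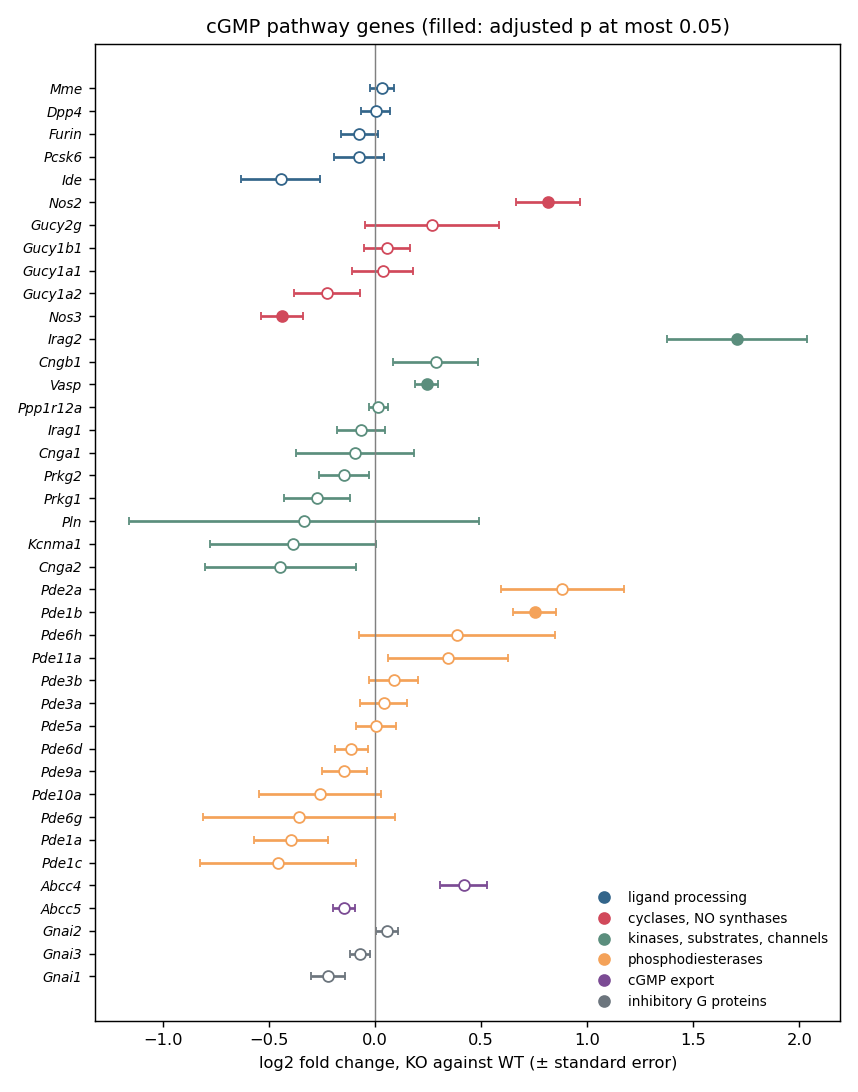
Log2 fold change of KO against WT mice with its standard error for the 40 tested cGMP pathway genes, coloured by role, filled where the adjusted p was at most 0.05. Filled points are Nos2, Irag2, Vasp and Pde1b on the higher side and Nos3 on the lower side, and the other 35 are open.

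Opposite-strand genes overlap several members, and the strand setting of the counting is not given in the sources used here. The antisense partners of Npr1 (Gm16048), Npr2 (Gm12473) and Nppa (Gm13054) had 0.162 to 0.282, 0.0488 to 0.335 and 0.244 to 0.517 CPM, small beside the receptors and above the Nppa level of KO5. The partner of Npr3, Gm5144, was not analysed here.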

How the data were processed

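RNA was measured in 6 lungs, 3 WT and 3 KO, at ZT10. The authors deposited whole-number read counts per Ensembl gene, not normalized. The submitters' processing notes and the study's methods name Trimmomatic 0.36, STAR 2.5.3a, Picard 2.9.0 and HTSeq 0.6.0 with GRCm38, and the annotation release and strand setting are not given in the sources used here. Total counts were 19981428 to 46796908 per mouse. Groups came from the sample labels.

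Counts were fitted in R 4.3.3 with edgeR 4.0.16 (glmQLFit and glmQLFTest, TMM scaling, filterByExpr with a minimum count of 10 and a minimum total of 15, no covariates), with Benjamini-Hochberg adjustment over 17037 genes and a threshold of 0.05. The standard error is the size of the log2 fold change over the root of F. CPM uses TMM-scaled totals, and log2 levels add 0.5 CPM. Positions and exon lengths came from the mouse release GENCODE M21. The members and lists were chosen with earlier results of these data known.

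The text names all members, pathway genes that were called, 10 pathway genes named regardless of their values, up to 3 defining genes of a marker list, and the 5 genes most like Npr3 with a mean of at least 1 CPM. Ide, Abcc4, Abcc5, Gnai1, Gnai2, Gnai3 and the antisense genes were named beyond this rule, after their values were seen. The same holds for marker genes named for a call, for the lack of one or for groups that did not overlap. Alternatives were other scaling factors, other filters, edgeR's exact test, DESeq2 1.42.0, the replicate number as a block, shares without length scaling, another marker list, and each mouse left out. The fit was tested on simulated data with 200 changed genes. Exact permutation tests used SciPy 1.17.1, and figures Matplotlib 3.10.9.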

Additional observations from a re-analysis of the deposited data

How the results depend on the processing

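Npr3 was lower and called under every alternative run, and its log2 fold change stayed between −2.03 and −1.91. Its share of receptor transcripts differed by −16.3 percentage points per kb, by −23.8 without length scaling, and by −16.9 to −15.7 with each mouse left out, and its difference relative to endothelial markers stayed between −1.95 and −1.79. Calls across all genes depended on single mice: the 1089 called genes became 1913 in DESeq2, which gave no adjusted p for 1003 genes, and 1 (Npr3, without WT5) to 1278 with each mouse left out, and were 254 without WT4, 63 without WT6 and 117 without KO6. The 109 genes past both thresholds became 211 without a filter, 203 in edgeR's exact test, 169 in DESeq2 and 1 to 214 with each mouse left out. Of the 5 called pathway genes, 0 to 4 were called with each mouse left out, and of the members 1 to 2 (2 without KO4, with Npr1 beside Npr3). A fit without 1 mouse also has fewer samples. The replicate numbers do not pair the mice, since deviations of same-numbered mice correlated at −0.0500, −0.170 and −0.0196. With the replicate block 66 genes were called, 14 were past both thresholds, 0 pathway genes were called, and Npr3 was called. Among genes that were not called, the sign turned with single mice left out, which gave −0.090 to 0.14 for Gucy1a1 (negative without WT6 and without KO5), −0.050 to 0.12 for Gucy1b1 (the same mice), −0.074 to 0.065 for Pde5a (the same mice, and −0.0088 without a filter), −0.096 to 0.12 for Pde3a (negative without WT4 and without KO4), −0.0068 to 0.070 for Mme (negative without KO4) and −0.16 to 0.0012 for Furin (positive without WT5), and the cause was not tested. The depth limits Nppb and Nppc, whose counts lie near or under the floor.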
